A study of Rattus norvegicus with 35 samples.

Results

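The genes of glucose uptake, glycolysis, lactate and pyruvate handling and glycogen metabolism were followed in cultured neonatal rat ventricular myocytes (NRVMs) exposed to cyclic mechanical stretch. The group is a hand-chosen list of 37 genes. A gene was included when a probe set of the Affymetrix whole-genome rat array was annotated with its symbol alone, and the brightest such probe set, by mean log2 value over 35 arrays, stood for the gene. By this rule 35 of the 37 genes were found, among 14218 genes in all. The pyruvate kinase gene Pkm was read only by a probe set shared with another gene, and Ppp1r3c, a glycogen-targeting phosphatase subunit, was not matched. Gapdh was read alone only by the control probe sets of the array, which were kept out of the model across all genes, so 34 members entered that model and Gapdh was compared by itself.

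Glycolysis splits glucose into pyruvate in the cytosol, and several of its steps are served by alternative enzymes, one form being typical of muscle or heart and another being found in most tissues. Glucose enters through facilitative transporters, is trapped by hexokinase, and is committed to breakdown by phosphofructokinase. Pyruvate is then burnt in mitochondria or exchanged with lactate, and glycogen is the stored form from which muscle releases glucose units. The fetal and newborn heart uses glucose and lactate heavily, and the adult heart relies more on fatty acids.

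Total RNA of 7 groups with 5 biological replicates each was hybridized. The first set of 20 arrays held myocytes stretched for 1, 4 and 12 h and its unstretched control (control a), and the second set of 15 arrays held myocytes stretched for 24 and 48 h with a control of its own (control b). All cells came from ventricles of Sprague-Dawley rats aged 2 to 4 days and were grown on flexible-bottomed plates, which a cyclic vacuum pulled down in the stretched groups and not in the controls. The culture is a myocyte-enriched fraction left after pre-plating, so other heart cells remained in it, and the labels give neither the sex of the pups nor which arrays shared a preparation. The RNA is that of the whole culture, and fewer cells of a type and less RNA per cell cannot be told apart. Values are log2 intensities on the deposited scale, which compares a gene between arrays of a set, not one gene with another. A member was called at an adjusted p under 0.05 in limma (Benjamini-Hochberg over all 31042 probe sets), and changes of at least 1.5-fold are given in addition.

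The 11 measured cardiomyocyte markers summed to an intensity of 126174 to 151420 on every array, and none was dim, with the lowest group mean of any of them at 3080 (Ryr2 after 12 h). Markers of other cells were read too. Summed intensity over 9 fibroblast markers lay between 63681 and 78632, over 8 smooth muscle and pericyte markers between 8226 and 16412, over 7 endothelial markers between 1637 and 3899, over 8 macrophage markers between 543 and 2072, and over 4 erythroid markers between 337 and 1331. The brightest smooth muscle and pericyte marker was Des (mean log2 12.74), which cardiomyocytes also make, so that sum does not read other cells alone. Of the macrophage markers only Cd68 and Cd14 (7.95 and 8.73), and of the erythroid ones only Hbb (8.93), lay above the median probe set (6.52). The macrophage and erythroid sums do not by themselves show that such cells were present. The control probe sets at the 3' and 5' ends of Gapdh, whose difference grows when RNA is broken, differed by -0.003 to 0.328 log2 units in the first set and by 0.092 to 1.023 in the second. In the second set, stretched replicate 4 after 24 h (0.953) and control b replicate 4 (1.023) stood apart from the rest.

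Members changed in both directions under stretch. Of 34 members, 7 were lower than control at all 5 times: the phosphofructokinase gene Pfkm, the aldolase gene Aldoc, the phosphoglycerate mutase gene Pgam2, the enolase gene Eno3, the lactate dehydrogenase gene Ldhb, and the glycogen phosphorylase genes Pygm and Pygb. The glucose transporter gene Slc2a3 and the phosphofructokinase gene Pfkp were higher at all 5 times. A further 12 were called higher only, at 1 to 3 times, and 8 lower only, and Slc2a1 was lower after 4 h (adjusted p = 0.0138, and 0.0679 after centring the arrays) and higher after 24 h. Aldoa, Pgk1, Ldha and Pdha1 were called at no time, with log2 fold changes between -0.09 and 0.10. The share of all genes called at all 5 times was not counted, so these counts have no background beside them. Times of a set share a control, so their calls are not independent. Some calls behind the counts at all 5 times were lost when certain single arrays were left out. They were Pfkp after 1 h, Slc2a3 after 24 h and Pygm after 1, 12 and 24 h.

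After 1 h, 10 of 34 members were called, which is 29.4%, where 16.5% of all 14217 genes tested were called. Of the 10, 3 were higher and 7 lower, with backgrounds of 8.24% and 8.3%, and the 3 higher became 1 without any of 7 single arrays. After 4 h there were 16 (47.1%, with 36.3% of all genes), 4 of them higher and 12 lower (17.1% and 19.2% of all genes). After 12 h there were 20 (58.8%, with 39.1% of all genes), 10 in each direction (19.4% higher and 19.7% lower among all genes). Bright genes pass the test more often than dim ones, and 31 of the 34 members lay above the median probe set. In a fit without dim probe sets, 32.3% of those 31 members and 29% of such genes were called after 1 h, 51.6% and 54.8% after 4 h, and 74.2% and 57.6% after 12 h. After 1 and 4 h the share of members called was thus close to that of bright genes in general.

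After 24 h, 14 members were called (41.2%, with 23.6% of all genes), 5 higher and 9 lower, with backgrounds of 13.5% and 10.1%. After 48 h, 21 were called (61.8%, with 40.9% of all genes), 8 higher and 13 lower, with backgrounds of 22.5% and 18.4%, and the 8 higher became 5 without any of 3 single arrays. Without dim probe sets the shares were 51.6% of members and 36.2% of genes after 24 h, and 74.2% and 55.5% after 48 h. Changes of at least 1.5-fold were few before the second day: 1 member after 1 h (1.32% of all genes), 1 after 4 h (3.57%, and 0 members without replicate 3 of that group), 3 after 12 h (4.09%, and 1 member without replicate 2 of that group) and 1 after 24 h (3.32%). After 48 h there were 8 members with such a change, where 9.09% of all genes had one. They were 2 higher (Pfkp and Slc16a3) and 6 lower (Pfkm, Aldoc, Pgam2, Eno3, Ldhb and Pygb), with backgrounds of 3.83% and 5.26%. The median log2 fold change of the members was 0.0097 after 48 h, and that of all genes was 0.0445.

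**Figure D1:**
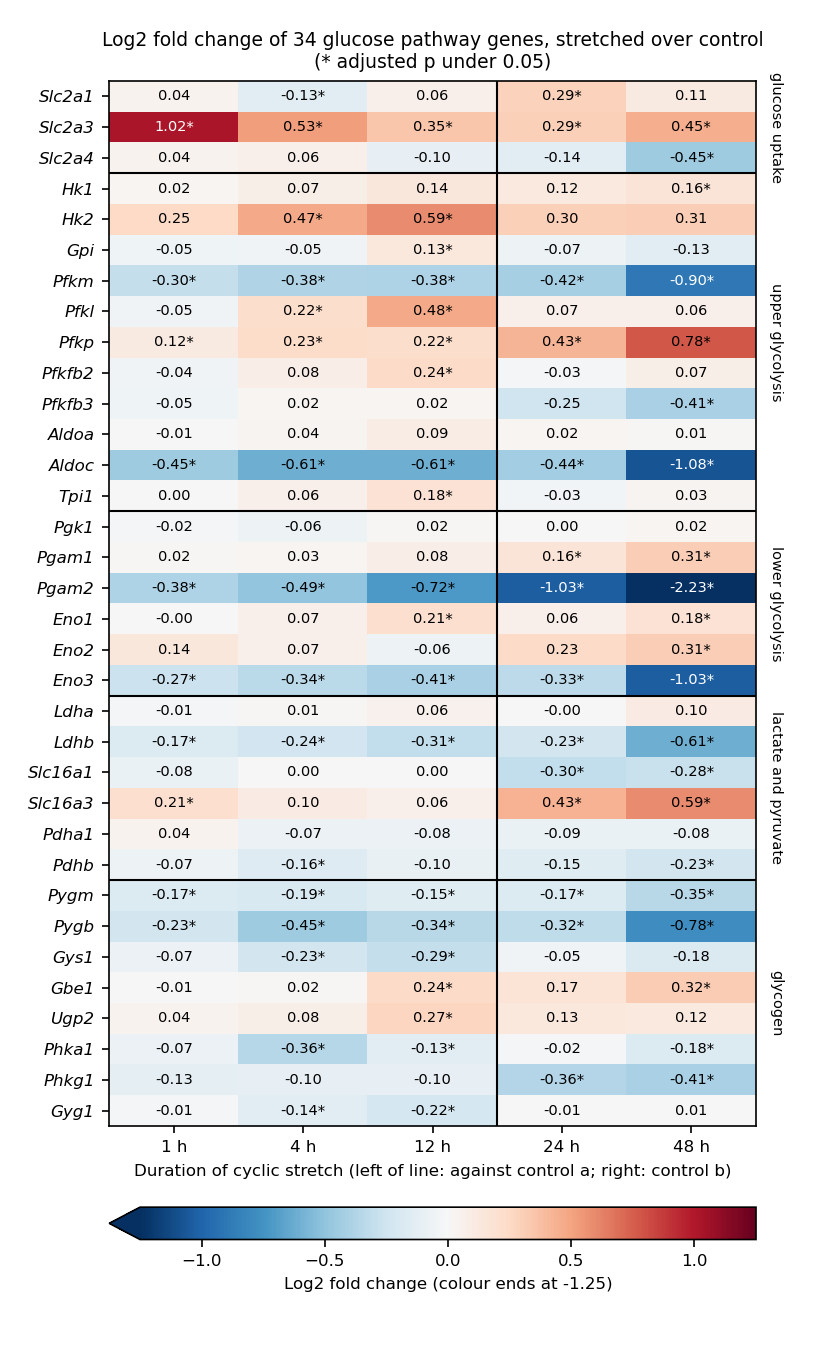
Log2 fold change, stretched over control, of the 34 members in the model (rows, grouped by role) after 1, 4 and 12 h against control a and 24 and 48 h against control b, with an asterisk where the adjusted p was under 0.05. Pgam2 has the deepest fall (-2.23 after 48 h) and Slc2a3 the largest rise (1.02 after 1 h).

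Among the glucose transporters, the high-affinity carrier Slc2a3 (GLUT3) rose early. Its log2 intensity was 8.44, 8.47, 8.42, 8.51 and 8.55 after 1 h of stretch, against 7.51, 7.45, 7.49, 7.58 and 7.27 in control a. All stretched arrays lay above all controls, a 2.03-fold rise (log2 fold change 1.02, SE 0.0597, adjusted p = 8.54e-11). The rise was smaller after 4 h (1.44-fold, adjusted p = 8.76e-07) and 12 h (1.27-fold, adjusted p = 0.000104), and the level after 4 h was lower than after 1 h (log2 difference -0.49, adjusted p = 9.83e-06). In the second set Slc2a3 was at 7.66, 7.82, 7.48, 7.84 and 7.55 after 24 h and 7.80, 7.93, 7.87, 7.63 and 7.93 after 48 h, against 7.15, 7.47, 7.27, 7.60 and 7.40 in control b. The arrays after 48 h cleared the controls (1.37-fold, adjusted p = 0.00104), and those after 24 h overlapped them (1.23-fold, adjusted p = 0.0358, a call lost when any of 6 single arrays was left out, with adjusted p up to 0.101). A dimmer second probe set of Slc2a3 was higher in the first set only, with log2 fold changes of 0.42, 0.71 and 0.48 after 1, 4 and 12 h, so the peak after 1 h rests on the brighter probe set.

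The insulin-responsive carrier of muscle and fat, Slc2a4 (GLUT4), was lower late on its brighter probe set. Its intensity was 8.21, 8.23, 8.57, 8.14 and 8.19 after 48 h, against 8.71, 8.74, 8.80, 8.64 and 8.68 in control b, without overlap (0.733-fold, adjusted p = 0.000249). The other probe set of Slc2a4 fell further, by 1.04 log2 units after 48 h and by 0.57 after 24 h. It was called lower already after 12 h (log2 fold change -0.25, adjusted p = 0.0472), so the size and timing of this change depend on the probe set. Slc2a1 (GLUT1), the carrier of most tissues, was 1.22-fold higher after 24 h (adjusted p = 0.00601) and not called after 48 h (log2 fold change 0.11, adjusted p = 0.228).

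**Figure D2:**
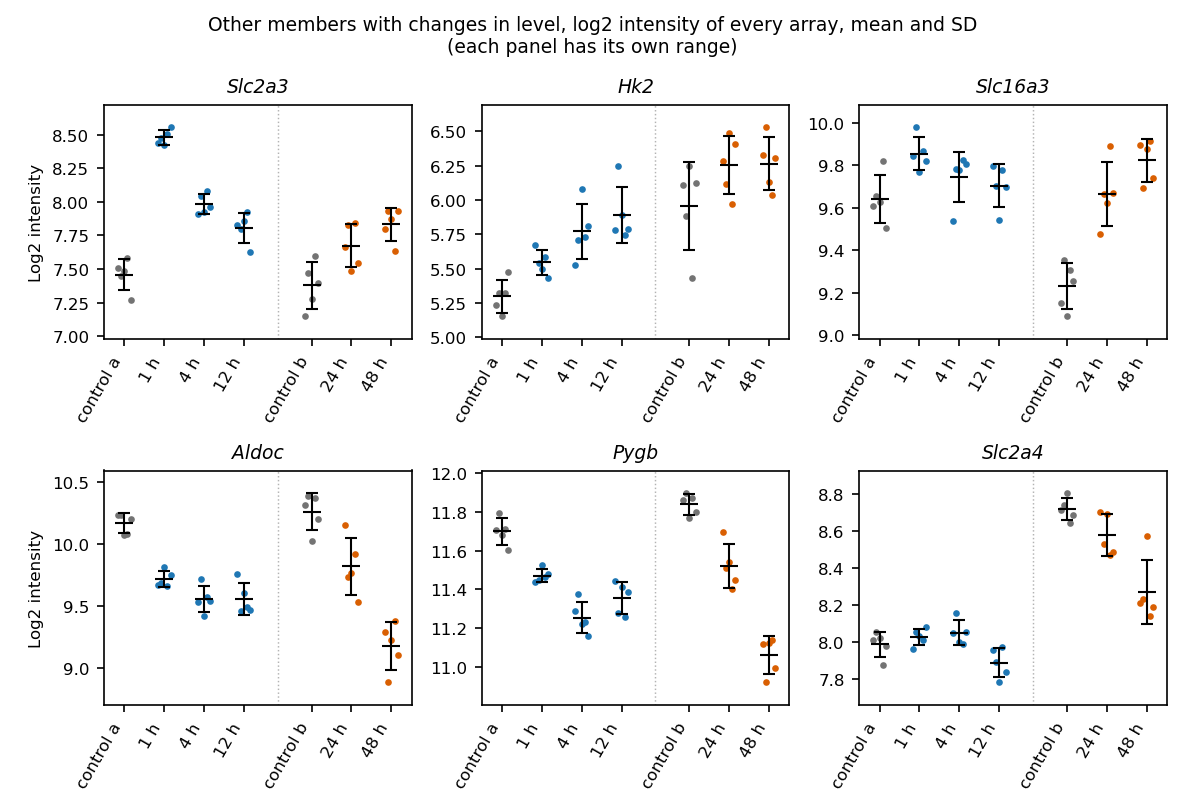
Log2 intensity (vertical axis) of every array in control a and after 1, 4 and 12 h, and in control b and after 24 and 48 h, for Slc2a3, Hk2, Slc16a3, Aldoc, Pygb and Slc2a4, with the mean and SD of each group (n = 5). All arrays of Slc2a3 after 1 h lie above control a, and all arrays of Aldoc, Pygb and Slc2a4 after 48 h lie below control b.

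Among the upper steps of glycolysis, the phosphofructokinase genes moved apart. This enzyme adds the second phosphate to the sugar and is the main control point of the pathway. Pfkm encodes its muscle subunit, Pfkl the liver subunit and Pfkp the platelet subunit. Pfkm was at 11.26, 11.00, 11.05, 10.97 and 10.86 after 24 h and at 10.62, 10.44, 10.56, 10.65 and 10.47 after 48 h, against 11.42, 11.48, 11.39, 11.46 and 11.48 in control b. Neither time overlapped the controls, with folds of 0.750 (adjusted p = 0.000422) and 0.537 (adjusted p = 6.35e-08). In the first set Pfkm was 0.815-fold after 1 h, 0.769-fold after 4 h and 0.767-fold after 12 h, again without overlap. A second bright probe set of Pfkm gave log2 fold changes of -0.24, -0.37 and -0.37 in the first set, -0.60 after 24 h (not called, adjusted p = 0.138) and -1.09 after 48 h, and a dim one was called at none of the 5 times.

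Pfkp ran the other way. It was at 12.05, 12.33, 12.17, 12.25 and 12.33 after 24 h and at 12.57, 12.65, 12.63, 12.47 and 12.58 after 48 h, against 11.78, 11.68, 11.85, 11.76 and 11.93 in control b. The groups did not overlap, with rises of 1.34-fold after 24 h (adjusted p = 0.00023) and 1.72-fold after 48 h (adjusted p = 1.34e-07). Its earlier rises were small, 1.08-fold after 1 h (adjusted p = 0.0378, lost when any of 7 single arrays was left out, up to 0.108), 1.17-fold after 4 h and 1.16-fold after 12 h. Pfkl was higher after 4 h (1.16-fold, adjusted p = 0.0141) and 12 h (1.39-fold, adjusted p = 8.27e-06), and its log2 fold changes were 0.07 and 0.06 after 24 and 48 h (adjusted p = 0.681 and 0.619).

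Hexokinase II (Hk2), the insulin-regulated form of muscle, rose in the first set. Its intensity was 5.78, 6.25, 5.89, 5.74 and 5.79 after 12 h, against 5.23, 5.32, 5.15, 5.32 and 5.47 in control a. The lowest stretched array lay above the highest control, a 1.51-fold rise (SE 0.096 log2 units, adjusted p = 5.5e-05), and the level after 4 h was 1.39-fold higher (adjusted p = 0.000658). Hk2 was dim, with a mean log2 of 5.85 where the median probe set had 6.52. In the second set its groups overlapped and its log2 fold changes of 0.30 and 0.31 were not called (adjusted p = 0.169 and 0.110). Hexokinase I (Hk1), the form found in most tissues, was called only after 48 h (1.12-fold, adjusted p = 0.0379), a call lost when any of 7 single arrays was left out (up to 0.104).

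Aldoc, the aldolase best known from brain, was the most lowered gene of these steps. It was at 9.67, 9.68, 9.81, 9.66 and 9.75 after 1 h, 9.54, 9.72, 9.42, 9.57 and 9.54 after 4 h and 9.76, 9.46, 9.61, 9.49 and 9.47 after 12 h, against 10.24, 10.23, 10.07, 10.08 and 10.20 in control a. No stretched array reached the controls, and the folds were 0.732, 0.656 and 0.656 (adjusted p = 3.31e-05, 2.33e-07 and 1.86e-07). In the second set Aldoc was at 10.15, 9.74, 9.77, 9.92 and 9.53 after 24 h and 9.29, 8.88, 9.22, 9.38 and 9.11 after 48 h, against 10.32, 10.38, 10.02, 10.37 and 10.20 in control b. One array after 24 h lay among the controls (0.738-fold, adjusted p = 0.0112), and after 48 h none did (0.472-fold, adjusted p = 1.49e-06). Aldoa, the muscle aldolase, stayed within 0.09 log2 units of control at every time and was not called, with groups that overlapped.

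The other upper enzymes moved by less. Gpi, which turns glucose 6-phosphate into fructose 6-phosphate, was 1.10-fold higher after 12 h (adjusted p = 0.013, and 0.0984 after quantile normalization). Tpi1, which interconverts the triose phosphates, was 1.13-fold higher at that time (adjusted p = 0.000518). Of the bifunctional enzymes that set the level of the phosphofructokinase activator fructose 2,6-bisphosphate, Pfkfb2 was higher after 12 h (log2 fold change 0.24, adjusted p = 0.0172, and up to 0.0611 without either of 2 single arrays) and Pfkfb3 lower after 48 h (-0.41, adjusted p = 0.010). Neither change was seen on the other probe sets of these genes, where log2 fold changes lay between -0.21 and -0.05 for Pfkfb2 after 12 h and between 0.00 and 0.12 for Pfkfb3 after 48 h, none of them called.

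Among the lower steps, Pgam2 had the deepest fall of all members. It encodes the muscle form of phosphoglycerate mutase, which moves the phosphate of 3-phosphoglycerate, and Pgam1 encodes the form of most tissues. The 250 bases before the transcription start of both genes are shown because they are the pair that moved furthest apart. They come from RefSeq on GRCr8 (rat). The Pgam2 promoter lies at chr14:84897875-84898124 on the minus strand, and the Pgam1 promoter at chr1:250672902-250673151 on the plus strand. Capitals mark motifs searched on both strands. The motif CAGCTG is an E-box of the kind bound by muscle bHLH factors. The motif TATAAA is a TATA box. The motif ACGTG is the core of a hypoxia response element.
Pgam2: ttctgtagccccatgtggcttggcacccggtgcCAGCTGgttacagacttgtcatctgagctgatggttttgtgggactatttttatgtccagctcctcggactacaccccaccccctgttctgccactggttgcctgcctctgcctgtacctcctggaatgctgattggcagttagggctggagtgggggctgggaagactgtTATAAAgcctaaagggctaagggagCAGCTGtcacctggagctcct
Pgam1: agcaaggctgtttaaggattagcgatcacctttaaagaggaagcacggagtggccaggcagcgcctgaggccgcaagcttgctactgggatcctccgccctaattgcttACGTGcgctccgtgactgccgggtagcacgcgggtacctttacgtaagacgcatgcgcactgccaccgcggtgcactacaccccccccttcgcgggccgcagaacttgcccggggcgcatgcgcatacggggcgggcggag
The Pgam2 window holds CAGCTG at bases -217 and -21 and TATAAA at base -46 before the start, and no ACGTG. The Pgam1 window holds ACGTG at base -141 and neither of the others. CAGCTG is found in 11.9% of the 27457 rat promoter windows of this length, TATAAA in 13.1% and ACGTG in 16.9%. Of 34 members with a promoter entry, 16 held ACGTG, 5 held CAGCTG and 2 held TATAAA (Gapdh and Pgam2). These letters are a description of the windows and were not tested as sites.

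In the first set Pgam2 was at 7.79, 7.92, 7.98, 7.85 and 7.92 after 1 h, 7.79, 7.99, 7.82, 7.84 and 7.50 after 4 h and 7.72, 7.47, 7.69, 7.36 and 7.54 after 12 h, against 8.40, 8.45, 8.29, 8.10 and 8.15 in control a. Every stretched array lay below every control, with folds of 0.767 (adjusted p = 0.00409), 0.713 (adjusted p = 0.000162) and 0.607 (adjusted p = 1.43e-06). In the second set it was at 8.91, 8.44, 8.55, 8.58 and 8.32 after 24 h and 7.35, 7.28, 7.19, 7.34 and 7.62 after 48 h, against 9.49, 9.70, 9.57, 9.73 and 9.45 in control b. The 3 groups were apart from each other. The fold was 0.490 after 24 h (log2 fold change -1.03, SE 0.101, adjusted p = 9.44e-06) and 0.213 after 48 h (-2.23, SE 0.101, adjusted p = 1.4e-09). Pgam1 was 1.12-fold higher after 24 h (adjusted p = 0.00873) and 1.24-fold after 48 h (adjusted p = 1.21e-05). Its 5 arrays after 48 h had 13.11 to 13.23, against 12.84 to 12.87 in control b, and its log2 fold changes in the first set were 0.02, 0.03 and 0.08, none called.

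The enolases, which make phosphoenolpyruvate, also moved apart. Eno3, the muscle form, was at 8.50, 8.45, 8.56, 8.49 and 8.44 after 24 h and 7.79, 7.49, 7.84, 8.05 and 7.78 after 48 h, against 8.81, 8.79, 8.93, 8.89 and 8.67 in control b. Both times lay wholly below the controls, at 0.795-fold (adjusted p = 0.0089) and 0.489-fold (adjusted p = 9.8e-08). In the first set Eno3 was 0.831-fold after 1 h, 0.791-fold after 4 h and 0.755-fold after 12 h, with adjusted p of 0.00802, 0.00045 and 5.64e-05. Eno1, the form of most tissues, was 1.15-fold higher after 12 h (adjusted p = 0.000115) and 1.13-fold after 48 h (adjusted p = 0.0327, lost when any of 7 single arrays was left out, up to 0.0841). Eno2, the neuronal form, was 1.24-fold higher after 48 h (adjusted p = 0.0279, lost without any of 5 single arrays, up to 0.0735).

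Pgk1, which makes the first ATP of glycolysis, had log2 fold changes between -0.06 and 0.02 and was not called at any time, and another bright probe set of it was called higher after 12 h (0.10, adjusted p = 0.0274). Gapdh, which oxidizes the triose phosphate, was read by the control probe set at the 3' end of its transcript at a mean of 13.45 ± 0.046 log2 units after 12 h and 13.26 ± 0.012 in control a (SD, n = 5), a difference of 0.19 (two-sided exact permutation test over the arrays, p = 0.0079, the smallest such p, and 0.0198 adjusted over the 5 times). The difference was 0.09 after 4 h with the same p values, and 0.03, 0.04 and 0.06 after 1, 24 and 48 h (adjusted p = 0.0893, 0.1111 and 0.0529). The control probe set in the middle of the transcript differed by 0.12 after 4 h and 0.26 after 12 h (exact permutation test, adjusted p = 0.0198 for both). That at the 5' end differed by 0.11 after 4 h and 0.23 after 12 h, and neither passed the exact permutation test (adjusted p = 0.1786 and 0.0794).

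**Figure D3:**
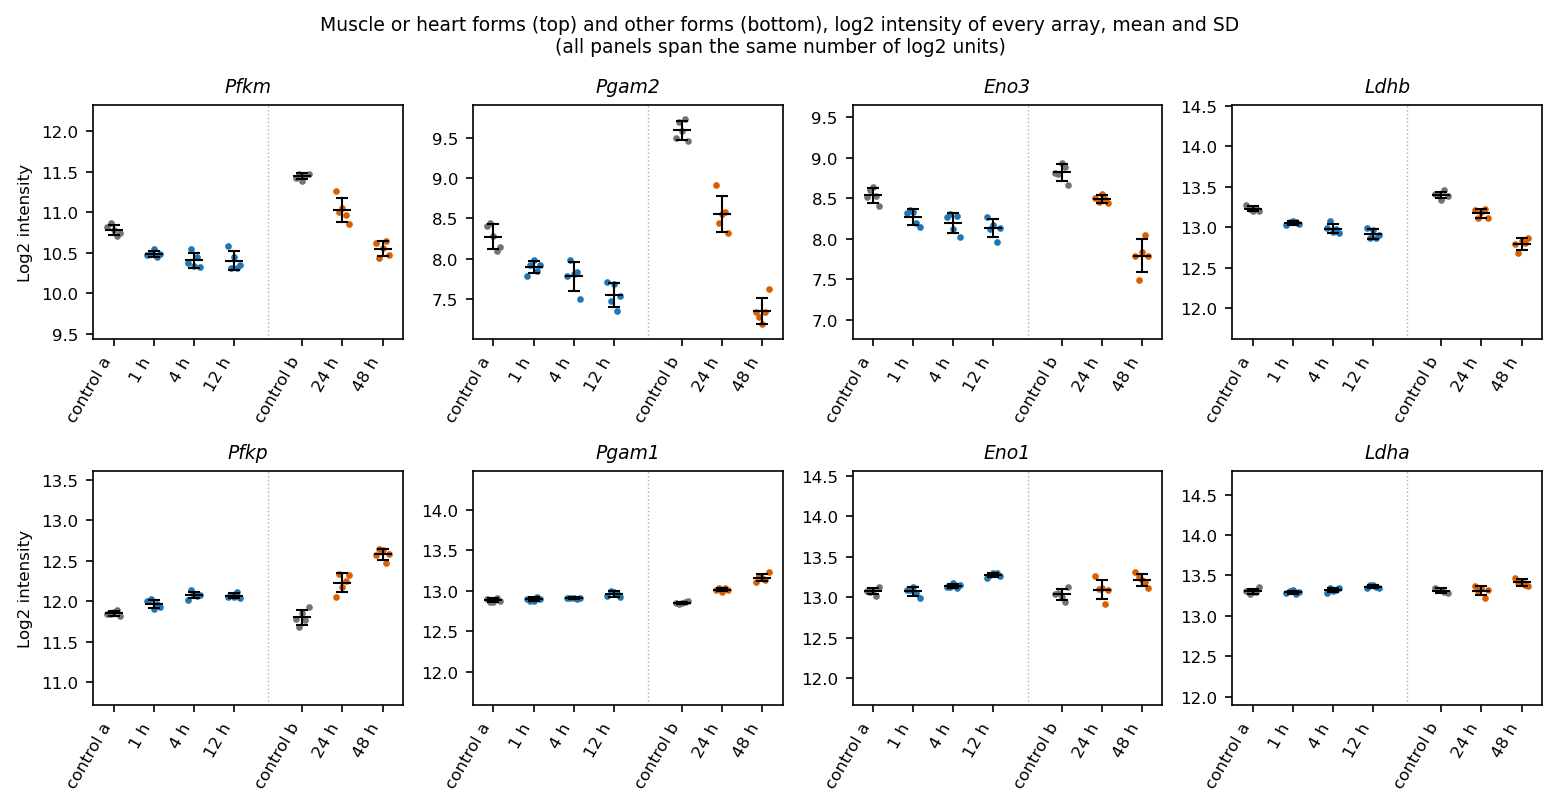
Log2 intensity (vertical axis, the same span in every panel) of every array in control a, 1, 4 and 12 h and in control b, 24 and 48 h, with the mean and SD of each group (n = 5), for Pfkm, Pgam2, Eno3 and Ldhb in the upper panels and Pfkp, Pgam1, Eno1 and Ldha in the lower ones. The upper genes lie below their controls at every time, and the lower ones lie near or above them.

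At the end of the pathway, lactate dehydrogenase interconverts pyruvate and lactate, with a heart subunit (Ldhb) and a muscle subunit (Ldha). Ldhb was at 13.22, 13.11, 13.18, 13.23 and 13.11 after 24 h and 12.79, 12.68, 12.83, 12.80 and 12.87 after 48 h, against 13.40, 13.41, 13.34, 13.45 and 13.38 in control b. Neither time overlapped the controls, and the fold was 0.854 after 24 h (adjusted p = 0.00299) and 0.657 after 48 h (adjusted p = 9.16e-08). In the first set Ldhb was 0.886-fold after 1 h, 0.845-fold after 4 h and 0.807-fold after 12 h, without overlap. Ldha was at 13.37 to 13.47 after 48 h, against 13.29 to 13.35 in control b. Its arrays did not overlap at that time, but the difference was not called (log2 fold change 0.10, SE 0.0427, adjusted p = 0.0825), nor was any earlier one.

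The lactate carriers also differed. Slc16a3 (MCT4), the exporter of glycolytic cells, was at 9.48, 9.66, 9.62, 9.89 and 9.67 after 24 h and 9.90, 9.69, 9.87, 9.92 and 9.74 after 48 h, against 9.15, 9.36, 9.09, 9.31 and 9.26 in control b. All stretched arrays lay above all controls, with rises of 1.35-fold (adjusted p = 0.000789) and 1.51-fold (adjusted p = 1.36e-05). In the first set Slc16a3 was called only after 1 h (1.16-fold, adjusted p = 0.0327, lost when any of 7 single arrays was left out, up to 0.0972). Slc16a1 (MCT1), the carrier through which the heart takes up lactate, was 0.810-fold after 24 h (adjusted p = 0.00026) and 0.823-fold after 48 h (adjusted p = 0.000157), calls lost over the mean of its probe sets (adjusted p = 0.0963 and 0.110). The other probe set of Slc16a1 was dim, with a mean log2 of 4.82. The pyruvate dehydrogenase subunit gene Pdhb was 0.896-fold after 4 h (adjusted p = 0.00684) and 0.855-fold after 48 h (adjusted p = 0.0033), and Pdha1, which encodes its partner, had log2 fold changes between -0.09 and 0.04 with no call.

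Among the 8 glycogen members, 2 were lower after 1 h, 5 after 4 h, 5 after 12 h, 3 after 24 h and 4 after 48 h, where 8.3%, 19.2%, 19.7%, 10.1% and 18.4% of all genes were lower. Higher calls were made for 2 of the 8 after 12 h and 1 after 48 h (19.4% and 22.5% of all genes). Pygb, the brain form of glycogen phosphorylase, which is also made in fetal heart, was at 11.70, 11.51, 11.54, 11.40 and 11.45 after 24 h and 11.12, 10.92, 11.12, 11.14 and 10.99 after 48 h, against 11.86, 11.90, 11.77, 11.87 and 11.80 in control b. It was clear of the controls at both times, at 0.802-fold (adjusted p = 0.00167) and 0.582-fold (adjusted p = 9.8e-08), and in the first set its fold was 0.853, 0.734 and 0.788. Pygm, the muscle form, was lower by less on its brightest probe set, at 0.879-fold after 4 h (adjusted p = 0.00898) and 0.786-fold after 48 h (adjusted p = 8.78e-05). Its calls after 1, 12 and 24 h (0.890-fold, 0.901-fold and 0.887-fold) were each lost when any of 6 or 7 single arrays was left out, with adjusted p up to 0.0897, 0.0839 and 0.0889. Other probe sets of Pygm fell further after 48 h, to 0.655-fold (adjusted p = 0.0161) and 0.602-fold (not called, adjusted p = 0.1).

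Of the phosphorylase kinase subunits that switch phosphorylase on, Phka1 was lower after 4 h (0.780-fold, adjusted p = 6.42e-06), with weak calls after 12 h and 48 h (adjusted p = 0.0346 and 0.0439, up to 0.110 and 0.117 when single arrays were left out). Another probe set of Phka1 was called at none of these times, with log2 fold changes of -0.10, 0.06 and -0.23. Phkg1, a dim probe set, was 0.777-fold after 24 h (adjusted p = 0.00211) and 0.755-fold after 48 h (adjusted p = 0.000339). On the side of synthesis, glycogenin (Gyg1), which primes the chain, was 0.908-fold after 4 h and 0.860-fold after 12 h (adjusted p = 0.00137 and 1.09e-05), and the muscle glycogen synthase Gys1 was 0.855-fold and 0.816-fold at those times (adjusted p = 0.0114 and 0.00129). The branching enzyme Gbe1 was 1.18-fold higher after 12 h (adjusted p = 0.000126) and 1.25-fold after 48 h (adjusted p = 0.000916). Ugp2, which makes the UDP-glucose that synthase uses, was 1.21-fold higher after 12 h (adjusted p = 9.13e-06). None of these 4 genes of synthesis was called after 24 h.

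Whether the forms of an enzyme responded differently was tested directly, by the difference of their log2 values within each array, with a two-sided exact permutation test over arrays and adjustment over 9 pairs at 5 times (45 tests). The smallest p of 5 against 5 arrays was 0.00794, which gave an adjusted p of 0.0112. Of the 45 tests, 39 passed: 7 of 9 pairs after 1 h and 8 of 9 at each later time. Pairs of other genes were not tested for comparison, so this count has no background beside it. Pfkm is paired with both Pfkl and Pfkp, so the tests are not independent. The muscle or heart form fell relative to the other at all 5 times for Pfkm with Pfkp, Pfkm with Pfkl, Pgam2 with Pgam1, Eno3 with Eno1 and Ldhb with Ldha. Of these, Pfkm with Pfkl after 1 h lost its call without either of 2 single arrays, and over the mean of all probe sets it was not past the threshold after 1 and 24 h (adjusted p = 0.366 and 0.122).

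Mean log2 levels differed between control a and control b, at 8.28 and 9.59 for Pgam2 and 10.78 and 11.45 for Pfkm. Times of different sets were therefore not compared. The response of Pgam2 minus that of Pgam1 was -0.40 log2 units after 1 h (SE 0.0847), -0.52 after 4 h, -0.80 after 12 h, -1.19 after 24 h and -2.55 after 48 h (SE 0.0822). Pfkm minus Pfkp gave -0.41, -0.60, -0.60, -0.84 and -1.68 at the same times. These 10 differences each had the smallest adjusted p, and the arrays did not overlap. After 48 h, Eno3 minus Eno1 gave -1.21 (SE 0.128) and Ldhb minus Ldha gave -0.71 (SE 0.047), with that p as well. Slc2a4 fell relative to Slc2a1 by 0.16 log2 units after 12 h (adjusted p = 0.029), 0.43 after 24 h and 0.56 after 48 h (adjusted p = 0.0112 for both), and after 4 h the difference was in the other direction (0.19, adjusted p = 0.0112, and 0.045 with adjusted p = 0.565 over the mean of all probe sets).

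The aldolases were not tested as a pair. Aldoc was lower at all 5 times and the muscle form Aldoa was not called (log2 fold changes of -1.08 and 0.01 after 48 h). In 2 other pairs, which were tested, the response of the muscle form was the higher one. Pygm fell less than Pygb, with differences of 0.26 after 4 h, 0.19 after 12 h and 0.43 after 48 h (adjusted p = 0.0112 each), and 0.15 after 24 h (adjusted p = 0.0376). Over the mean of all probe sets of each gene the difference was 0.18 after 12 h, -0.026 after 24 h and 0.22 after 48 h (adjusted p = 0.0840, 0.873 and 0.290), so this pair depends on the probe set. Hk2, the muscle form, rose relative to Hk1 by 0.23 after 1 h, 0.40 after 4 h and 0.45 after 12 h (adjusted p = 0.0458, 0.029 and 0.021), and the differences after 24 and 48 h (0.18 and 0.15, SE 0.21 and 0.192) did not pass. The first of these was lost without any of 8 single arrays (up to 0.0824) and the second without any of 4 (up to 0.0564). Of the lactate carriers, Slc16a3 rose relative to Slc16a1 by 0.29 after 1 h, 0.74 after 24 h and 0.87 after 48 h (adjusted p = 0.0112 each), and the differences of 0.10 and 0.06 after 4 and 12 h did not pass (adjusted p = 0.279 and 0.552).

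**Figure D4:**
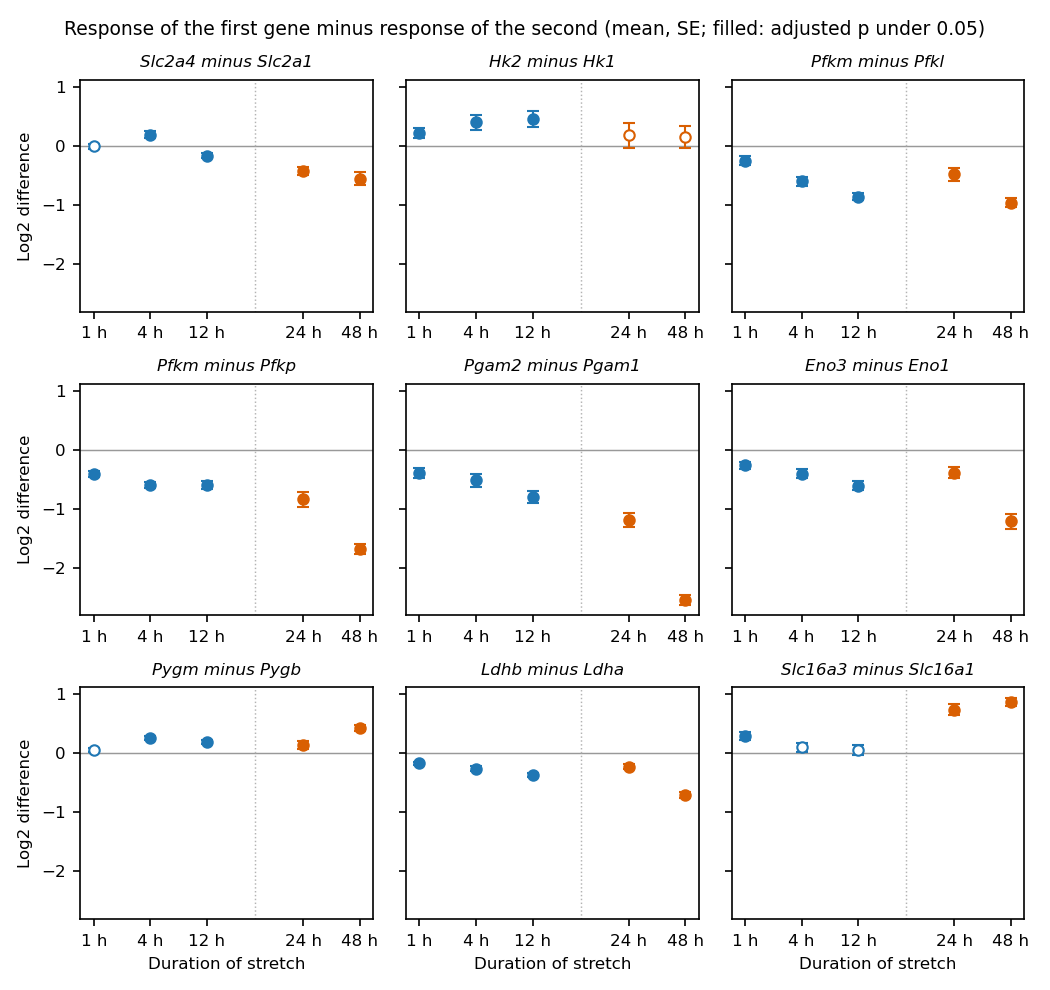
Response of the first gene of a pair minus that of the second (vertical axis, log2 units, mean with SE, 5 arrays a group) after 1, 4 and 12 h against control a (blue) and 24 and 48 h against control b (orange), with filled symbols where the adjusted p of the exact permutation test was under 0.05. Among the pairs shown, the difference is most negative for Pgam2 minus Pgam1 after 48 h (-2.55) and most positive for Slc16a3 minus Slc16a1 (0.87).

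Neighbouring times of a set were compared as well. At 4 h against 1 h, 7 members were called (20.6%, with 17.5% of all genes), 1 higher and 6 lower (backgrounds 8.64% and 8.89%). At 12 h against 4 h, 9 were called (26.5%, with 12.1%), 8 higher and 1 lower (backgrounds 5.85% and 6.22%). Those higher after 12 h included Gbe1 (log2 difference 0.22, adjusted p = 0.00153), Ugp2 (0.19, adjusted p = 0.00175), Pfkl (0.26, adjusted p = 0.0154), Gpi (0.18, adjusted p = 0.00543) and Eno1 (0.14, adjusted p = 0.0159). At 48 h against 24 h, 9 were called (26.5%, with 8.69%), 2 higher and 7 lower (backgrounds 2.97% and 5.73%), and 3 of the lower ones changed at least 1.5-fold (1.18% of all genes). Pgam2 fell by 1.20 log2 units between these times (adjusted p = 9.51e-06), Eno3 by 0.70 (adjusted p = 0.000124), Aldoc by 0.64 (adjusted p = 0.00234), Pfkm by 0.48, Pygb by 0.46, Ldhb by 0.38 and Slc2a4 by 0.31. Pfkp and Pgam1 were the 2 that were higher, by 0.35 and 0.15 (adjusted p = 0.00316 and 0.0306).

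Beside the members, 78 other genes of these pathways and their regulators were listed, of which 65 were measured. After 48 h, 11 of the 65 were higher and 26 lower, where 22.5% and 18.4% of all genes were. After 1 h, 5 were higher and 13 lower, where 8.24% and 8.3% of all genes were. Ppp1r3b, a subunit that brings protein phosphatase to glycogen, fell by 0.63 log2 units after 1 h, 0.73 after 4 h, 0.34 after 12 h, and 0.74 after 24 h, and stood at 0.352-fold of control after 48 h, called each time. The related Ppp1r3a and Ppp1r3d dropped by 0.76 and 0.70 after 48 h. Among 10 genes of pyruvate entry, Pdk4, the kinase that shuts pyruvate dehydrogenase off, had log2 fold changes of -0.73, -0.77, -0.60, -0.47 and -0.85 and was called each time, and Pdk1, Pdk2 and Mpc2 were lower after 48 h (log2 fold changes of -0.48, -0.69 and -0.31). Of 6 genes of the shuttles that carry cytosolic NADH to mitochondria, 5 were lower after 48 h (18.4% of all genes), with log2 fold changes between -0.35 (Got1) and -0.17 (Mdh2). Pgm1, which links glucose 6-phosphate to glycogen, rose at every time (log2 fold change 0.45 after 48 h). Among 17 regulators, Myc rose at every time (1.74 after 1 h and 1.35 after 48 h) and Klf15, a metabolic regulator of muscle, fell at every time (-1.13 after 1 h and -1.77 after 48 h).

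Markers of other cells, some of them dim or shared with cardiomyocytes (Des), moved with these results, and their part in the results was not tested. Of 8 smooth muscle and pericyte markers, 5 were higher after 48 h (Cnn1 by 2.89 log2 units, Acta2 by 1.12, Cspg4 by 1.01) and 1 lower, and their summed intensity was 14228 to 15348 after 48 h, against 8226 to 10342 in control b. Of 7 endothelial markers 6 were lower (sum 2164 to 2351 after 48 h, against 2973 to 3899 in control b), as were 6 of 8 macrophage markers (1287 to 1414, against 1907 to 2072) and 6 of 9 fibroblast markers (63681 to 71510, against 75446 to 78632). Of the 11 cardiomyocyte markers 5 were lower after 48 h and 1 higher, with log2 fold changes between -0.45 (Tnni3) and 0.46 (Myh7), and their sum was 126174 to 131966, against 139970 to 142321 in control b. In the first set the cardiomyocyte sum was 140642 to 145940 after 1 h, 139854 to 145941 after 4 h and 137158 to 141176 after 12 h. Control a had 146309 to 151420, and 3, 4 and 5 of the 11 markers were lower at these times. After 24 h the cardiomyocyte sum was 133540 to 140294, against 139970 to 142321 in control b, with 5 markers lower and 1 higher. The smooth muscle sum was 13632 to 15055 after 1 h, 14049 to 16412 after 4 h and 13348 to 14247 after 12 h, against 11511 to 12644 in control a, with 4, 5 and 2 of its 8 markers higher. Of the 9 fibroblast markers, 2 were lower after 1 h, 6 after 4 h and 6 after 12 h, with sums of 68692 to 71037, 64441 to 68896 and 65996 to 69675, against 70989 to 76031 in control a. Of the 7 endothelial markers, none was called after 1 h and 4 were lower after both 4 and 12 h, with sums of 2012 to 2328, 1637 to 2048 and 1681 to 1962, against 2107 to 2534 in control a. Of the 8 macrophage markers, 1 was lower after 4 h and 2 after 12 h, and their sums overlapped control a. After 24 h the smooth muscle and pericyte sum was 9929 to 14597, against 8226 to 10342 in control b, with 5 of its 8 markers higher. Without both arrays of the second set with a wide Gapdh difference, Pgam2, Pfkm, Pfkp, Eno3 and Ldhb kept their calls after 24 and 48 h.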

How the data were processed

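Per the study's methods, the authors hybridized RNA of 5 biological replicates per group to Affymetrix rat arrays and normalized the scans in GeneSpring GX by robust multichip averaging (RMA). The intensities they deposited are on a linear scale, so log2 was taken here. A spreadsheet had turned 471 of 1088465 deposited intensities into dates. They were read back as numbers, and none belonged to a member. Which control goes with which set was read from the labels' letters and checked against the study's supplementary values. Probe sets were named from the platform annotation in GEO, which can be old. Of 31042 probe sets, 20826 read 1 gene, 436 several and 9780 none, and 57 array controls were left out.

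Each set had its own fit over all probe sets, with the moderated variances of limma 3.58.1 under R 4.3.3. The one-way analysis of variance that the methods name was an alternative. Every member is named. Values of single arrays are given for members with an adjusted p under 0.05 and a change of at least 1.5-fold, and for Slc2a4. They are not printed for every group of these members. Pairs of isoforms and Gapdh were compared by exact permutation (Python 3.11.15, scipy 1.17.1, numpy 2.4.6, pandas 2.3.3), with 252 splits of 5 against 5 arrays. The model was tested on simulated data. Members and gene lists were chosen with earlier results of these data known. Alternatives were quantile normalization, centring, a filter on dim probe sets, averaging of probe sets, array weights, the replicate number as a block, converted values set to missing and each array left out in turn. The 5 arrays per group limit the precision, and the median residual SD was 0.114 log2 units in the first set and 0.12 in the second. The methods state that stretching began in steps within each culture and ended together, so groups of a set can share a culture. Nothing in the labels says which arrays shared a preparation, so p-values measure the spread between these arrays.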

Additional observations from a re-analysis of the deposited data

Results flagged for a closer look

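Among 70 groups of 5 arrays examined (10 genes with a change of at least 1.5-fold in 7 groups), 1 held an array far from the rest. Slc16a3 (MCT4) read 9.538 log2 units in replicate 1 after 4 h of stretch, and the nearest of the other 4 arrays read 9.778. Chance sets such an array apart in about 1 in 20 groups. Slc16a3 was not called after 4 h.

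The difference between the responses to 48 and 24 h, tested in limma, was past the threshold and at least 1.5-fold for 3 members. It was -1.2044 log2 units for Pgam2 (adjusted p = 9.51e-06), -0.6999 for Eno3 (adjusted p = 0.000124) and -0.6443 for Aldoc (adjusted p = 0.00234). Both times share control b, so each value is the level after 48 h minus that after 24 h.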

How the results depend on the processing

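Of 81 member calls against control, 64 kept an adjusted p under 0.05 in every alternative that could be run for them and without each array of their own set in turn (20 or 15 arrays). The dim filter leaves out Hk2, Pfkfb2 and Phkg1, and the fit without both arrays with a wide Gapdh difference covers 24 and 48 h only. None of the 14 calls of at least 1.5-fold lost its adjusted p. Of 39 isoform pair calls, 31 were kept in the alternatives run for pairs. Centring the arrays left 0 members with a change of at least 1.5-fold after 4 h in place of 1 (Aldoc) and 0 members lower at 12 h than at 4 h in place of 1. Averaging the probe sets gave 2 members with such a change after 4 h. It also turned Pfkfb2 after 12 h to -0.027 (adjusted p = 0.763, main value 0.24) and Pygm minus Pygb after 24 h to -0.026 (adjusted p = 0.873 by exact permutation, main value 0.15), and the cause was not tested. Members higher at 4 h than at 1 h numbered 2 in place of 1 with the one-way analysis, the dim filter and averaged probe sets. Members lower at 12 h than at 4 h numbered 2 in the one-way analysis, 3 with the dim filter and 2 with array weights.

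Deviations from the group means correlated between arrays of the same replicate number by -0.297 to 0.339 in the first set and -0.393 to 0.539 in the second, over 0.1 in 6 of 30 and 6 of 15 pairs, so a pairing was not established. The Gapdh difference was widest in replicate 4 both after 24 h and in control b. With the replicate block, 2 members were lower at 12 h than at 4 h and 1 member was higher at 48 h than at 24 h in place of 2. Pfkp after 1 h, Pygm after 24 h and Hk1 after 48 h lost their calls (adjusted p = 0.0506, 0.0531 and 0.0695). For isoform pairs the block allows no p below 0.0625.

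Leaving out single arrays, members higher after 1 h numbered 1 to 4 (1 without replicate 1, 2, 3 or 5 of control a or replicate 1, 2 or 4 of the 1 h group) and members higher after 48 h numbered 5 to 8 (5 without replicate 1 or 3 of control b or replicate 3 of the 48 h group). Members with a change of at least 1.5-fold numbered 0 to 1 after 4 h (0 without its replicate 3) and 1 to 3 after 12 h (1 without its replicate 2). Between neighbouring times, 1 to 2 were higher at 4 h than at 1 h, 0 to 2 lower at 12 h than at 4 h, and 1 to 2 higher at 48 h than at 24 h. Without both arrays with a wide Gapdh difference, a choice made after seeing the data, Pygm after 24 h, Phka1 after 48 h and Pygm minus Pygb after 24 h lost their calls. Hk2, Pfkfb2 and Phkg1 lie below the median probe set (6.52 log2 units).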
